A study of Mus musculus with 4 samples.

Results

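The genes described here encode Polycomb proteins, histone deacetylases, ATP-dependent chromatin remodellers, heterochromatin proteins and members of the Kmt and Kdm families. The Kmt and Kdm families are named for adding or removing methyl groups on histone lysines. The genes were chosen by symbol, from the families Hdac, Cbx, Smarc, Chd, Ezh, Phc, Kmt and Kdm plus Eed, Suz12, Bmi1, Ring1, Rnf2, Jarid2 and Trim28. Earlier results of these data were known at that choice. The array held 63 probe sets with such a symbol, for 47 of the 8251 genes it names. Probe sets that carry more than 1 symbol were not used, and Cbx3 was therefore not analysed here. Mouse cells grown from Scl+/hCD4 embryonic stem (ES) cells, in which human CD4 reports the blood and endothelial regulator Scl (Tal1), were measured on single-colour arrays, with 2 arrays titled Hemangioblast and 2 titled hCD4. Per the study text, the cells were differentiated in serum for 2.75 days, embryoid body cells positive for Flk-1 and Scl were sorted as hemangioblasts, the shared precursors of blood and endothelium, and blast colonies grown from replated cells were picked and pooled. Titles, sample sources and study text differ on which arrays hold colonies, sorted cells or ES cells (the sources call the groups cultured hemangioblasts and cultured hCD4 ES cells, the study text calls the populations hCD4 and Blast), so the groups carry their array titles here. Every array derives from that single reporter line, and no label states whether the arrays of a group stem from separate cultures. The p-values therefore reflect array-to-array spread alone, and that spread may be technical.

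Polycomb proteins keep developmental genes silent. Polycomb repressive complex 2 (PRC2) places a repressive methyl mark on histone tails, and the complex PRC1 reads that mark through its Cbx subunits and compacts or ubiquitinates the chromatin. Histone deacetylases remove activating acetyl groups, while the SWI/SNF, ISWI and CHD families use ATP to slide, evict or space nucleosomes. Stem cells and blood progenitors are known to use different paralogs of several of these subunits, and Bmi1 is best known in blood for sustaining the self-renewal of stem cells.

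Values are scaled intensities, in the linear units of the deposited table after each array was brought to a common trimmed mean. Changes are Hemangioblast minus hCD4 on the scale log2(scaled intensity + 16), which understates the change of dim genes, and folds are taken from them. Adjusted p-values are limma's, with Benjamini-Hochberg adjustment over all 12422 probe sets and a threshold of 0.05. A gene with several probe sets is given by the one with the highest mean log2 value.

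Promoter windows of 4 genes are shown. They are those of Trim28 and Smarcc1, the members with the lowest adjusted p among those with a RefSeq window, and of the PRC2 enzyme Ezh2. The last is that of Bmi1, the PRC1 subunit that was higher without overlap between groups, though not past the threshold. Each runs 5′ to 3′ on the gene's strand from 250 bases before to 50 bases after the annotated start (RefSeq, GRCm38.p6), at chr7:13023902-13024201 on the + strand, chr9:110131774-110132073 on the + strand, chr6:47594981-47595280 on the - strand and chr2:18676768-18677067 on the + strand. Capitals mark matches on either strand to an E2F-type element (TTTNGCGC), the core of an NRF1-type element (CGCNTGCG), an Ets-type element (CCGGAAG), a YY1-type element (AAGATGGCG), a GC box (GGGCGG) or a TATA box (TATAAA), where N is any base and matches may overlap.
Trim28: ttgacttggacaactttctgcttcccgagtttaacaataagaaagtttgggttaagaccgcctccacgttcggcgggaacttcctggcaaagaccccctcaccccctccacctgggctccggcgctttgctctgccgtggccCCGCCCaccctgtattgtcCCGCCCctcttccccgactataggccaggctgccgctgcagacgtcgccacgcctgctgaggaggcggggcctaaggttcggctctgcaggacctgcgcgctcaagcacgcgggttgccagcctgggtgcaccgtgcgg
Smarcc1: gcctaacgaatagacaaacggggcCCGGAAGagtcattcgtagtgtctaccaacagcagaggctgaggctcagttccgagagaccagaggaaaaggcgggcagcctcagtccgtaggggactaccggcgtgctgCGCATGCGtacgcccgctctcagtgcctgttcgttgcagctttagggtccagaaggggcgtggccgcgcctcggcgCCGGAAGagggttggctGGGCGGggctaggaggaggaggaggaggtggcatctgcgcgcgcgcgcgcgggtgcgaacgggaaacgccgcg
Ezh2: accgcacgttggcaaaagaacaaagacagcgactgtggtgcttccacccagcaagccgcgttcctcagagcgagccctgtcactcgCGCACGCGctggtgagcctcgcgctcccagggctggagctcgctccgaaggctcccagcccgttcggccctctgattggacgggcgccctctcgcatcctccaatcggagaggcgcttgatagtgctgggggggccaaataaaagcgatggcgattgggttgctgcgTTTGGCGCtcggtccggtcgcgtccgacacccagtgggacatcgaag
Bmi1: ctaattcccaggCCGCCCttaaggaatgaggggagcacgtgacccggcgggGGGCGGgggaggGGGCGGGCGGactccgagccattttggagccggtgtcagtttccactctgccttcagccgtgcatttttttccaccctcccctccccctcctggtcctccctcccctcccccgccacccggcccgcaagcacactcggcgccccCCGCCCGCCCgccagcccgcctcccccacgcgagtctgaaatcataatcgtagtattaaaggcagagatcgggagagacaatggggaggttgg
In the lines above, Trim28 holds 2 GC boxes, Bmi1 6, Smarcc1 1 GC box beside 2 Ets-type matches and 1 NRF1-type core, and Ezh2 1 E2F-type match and 1 NRF1-type core. Windows on 1 chromosome were left out before any were counted. A RefSeq window was then matched for 38 of the 47 genes, and where a gene had several the one with the lowest start coordinate was used. Their windows held a median of 23 CpG dinucleotides, against 19 in the windows of the 6572 array genes matched. The median was 7 over all 27025 genes with a window so kept, again 1 a gene. GC boxes were found in 27 of the 38 (71.1%), against 58.3% of the array genes and 35.6% of all genes with a window. The NRF1-type core stood in 11 of the 38 (28.9%), against 15.1% of the array genes and 8.33% of all genes with a window. Those 11 genes were Ezh1, Ezh2, Jarid2, Cbx7, Smarca4, Smarca5, Smarcb1, Smarcc1, Chd1l, Kdm1a and Kdm5d. The Ets-type element was found in 3 (Smarcc1, Chd8 and Smarca2), or 7.89% against 15.5% of the array genes and 9.08% of all genes with a window. TATA boxes were found in 2 (Kdm5d and Smarcd2), or 5.26% against 10.5% and 14.1%. Ezh2 held the single E2F-type match (2.63% against 2.34% and 1.38%) and Smarcd1 the single YY1-type match (2.63% against 2.66% and 1.49%). Matches are letters in a window and were not set against binding data.

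Most of the 47 genes were slightly lower on the Hemangioblast arrays, and 1 passed the test. Cbx2, a chromodomain subunit of PRC1, fell to 52% of its hCD4 level, and 0 genes rose. Over all genes on the array 5.36% passed in either direction, 1.96% lower and 3.39% higher, and 1 of 47 is close to the share of all genes that fell. Counted by probe set, 1 of 63 passed, against 4.48% of all probe sets tested. The direction was less even. The log2 change was below 0 for 33 of the 47 (70.2%), where 47.4% of all genes were below 0, and its median was -0.22 against 0.02 for all genes. The Hemangioblast arrays lay below both hCD4 arrays for 23 members, where this holds for 22% of all genes, and above both for 3 (Bmi1, Kdm5a and Kmt2e), where it holds for 24.5%. Together that is 26 of 47, against 46.5% of all genes. In 21 members the groups overlapped. At an unadjusted p under 0.05 there were 13 members lower and 1 higher, against 8.62% and 9.59% of all genes.

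**Figure D1:**
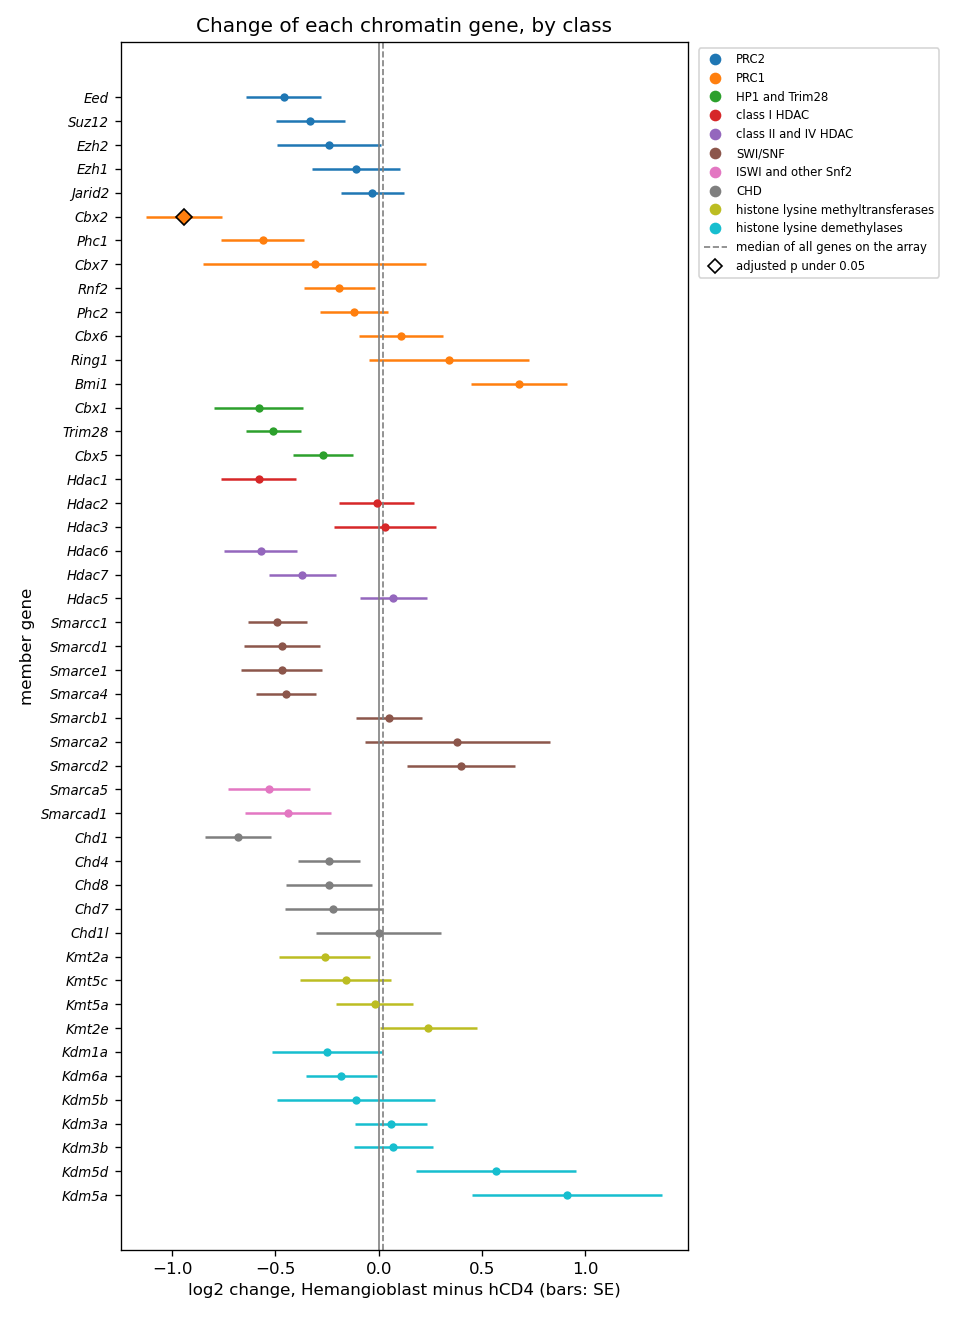
Log2 change of each of the 47 genes, Hemangioblast minus hCD4 (horizontal axis), with bars of 1 SE, grouped and coloured by class down the page. The solid line is 0, with 33 genes to its left, the diamond marks Cbx2, whose adjusted p was 0.027, and the dashed line the median of all genes, 0.02.

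No member differed by as much as 1 on the log2 scale, a size that 6.06% of all genes on the array reached or passed. The largest values were -0.94 for Cbx2 and 0.91 for Kdm5a, a dim probe set. Cbx2 alone among the members was lower by 1.5-fold or more in every one of the 4 pairings across the groups, and 0 were higher by as much, which 2.42% of all genes did downward and 5.22% upward. Most members were of middle to high brightness, with a median mean intensity of 486 against 265 for all genes, while 4 had a mean under 100. Among the 43 members with a mean of at least 100, the median change was -0.24, and 32 (74.4%) were below 0. For all genes with such a mean, the median was -0.00 and 50.3% were below 0. In these bulk samples, fewer cells of a type and less RNA per cell cannot be told apart. A change had to reach between 0.59 and 2.37 (median 0.86) to be called, depending on the spread of the probe set, so differences below about that size were not detectable with 2 arrays a group.

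**Figure D2:**
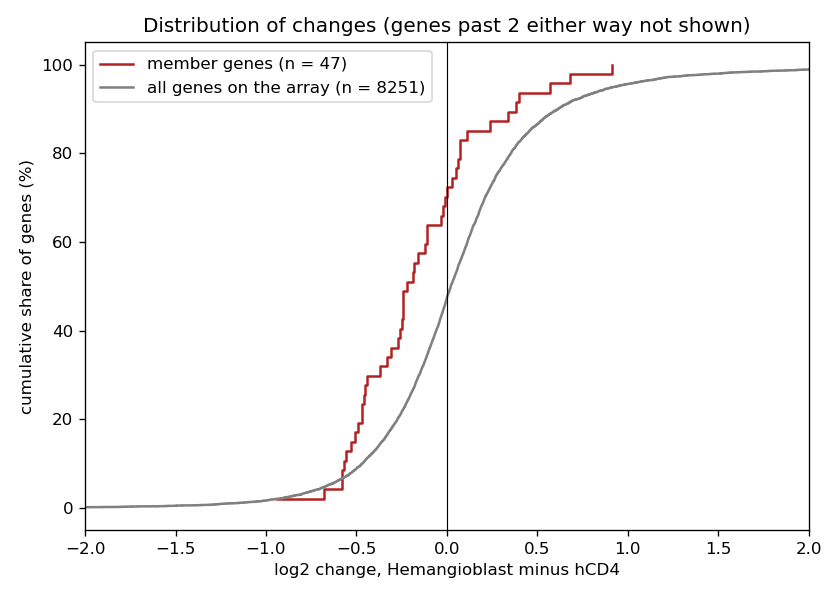
Cumulative share of genes (vertical axis, percent) by log2 change, Hemangioblast minus hCD4 (horizontal axis), for the 47 chromatin genes and for all 8251 genes. The curve of the chromatin genes crosses 0 at 70.2%, that of all genes at 47.4%.

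PRC1 held the called gene and also the member that was higher with the smallest p. Cbx2 had scaled intensities of 262 and 288 on the Hemangioblast arrays, against 554 and 530 on the hCD4 arrays. The groups were far apart and each pair of arrays close together. The log2 change was -0.94 (SE 0.184, limma adjusted p = 0.027). With any 1 array left out the change kept its size (-1.01 to -0.88) and the adjusted p lay above the threshold, from 0.0527 without Hemangioblast replicate 2 to 0.166 without hCD4 replicate 1, with 0.0694 without Hemangioblast replicate 1 and 0.155 without hCD4 replicate 2. A dimmer probe set of Cbx2 read 132 and 248 against 225 and 295, with overlapping groups and a change of -0.47 (adjusted p = 0.558).

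Bmi1, which stimulates the ubiquitin ligase of PRC1, read the other way. It stood at 667 and 439 on the Hemangioblast arrays, against 309 and 356 on the hCD4 arrays. Both Hemangioblast values were the higher ones, but they lay far apart, and the change of 0.68 (95% interval 0.15 to 1.22) missed the threshold (adjusted p = 0.175). Without Hemangioblast replicate 1 it was 0.39, and without Hemangioblast replicate 2 it was 0.97. Phc1, a polyhomeotic subunit, was at 374 and 400 against 672 and 498, a change of -0.56 (adjusted p = 0.199). Its groups did not overlap, and the hCD4 arrays were the more spread. Its paralog Phc2 was at 666 and 591 against 679 and 690 (-0.12, 95% interval -0.50 to 0.25).

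The ligase subunits of PRC1 showed no detectable difference. Rnf2 (Ring1B), the main ligase, was at 665 and 549 on the Hemangioblast arrays, against 704 and 677 on the hCD4 arrays, a change of -0.19 (95% interval -0.58 to 0.21), and its other probe sets read 0.04 and -0.23. Its paralog Ring1 was dim, at 46.4 and 64.3 against 57.0 and 26.6, and its interval of -0.55 to 1.24 is wide. The remaining Cbx genes of PRC1 overlapped between groups on the probe sets used. Cbx6 had opposite signs on its probe sets (0.11 and -0.20), and Cbx7, the form that dominates in ES cells in mouse, read 30.8 and 147 against 86.1 and 98.7. The Hemangioblast arrays thus disagreed on Cbx7 by more than the groups did, and its 95% interval ran from -1.55 to 0.93.

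All 5 PRC2 genes had a change below 0, where 47.4% of all genes did, and 0 passed (1 at an unadjusted p under 0.05, Eed). Eed, the subunit that binds the methyl mark, was at 468 and 419 on the Hemangioblast arrays, against 675 and 559 on the hCD4 arrays, a change of -0.46 (95% interval -0.88 to -0.04, adjusted p = 0.255). Suz12, which holds the core together, was at 769 and 694 against 844 and 1009 (-0.33, adjusted p = 0.396). For both genes the Hemangioblast arrays were lower without overlap, which holds for 22% of all genes. The other probe sets of Suz12, which were dimmer, read 0.02 and -0.58 with overlapping groups.

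Ezh2, the methyltransferase of dividing cells, was at 650 and 536 on the Hemangioblast arrays, against 909 and 538 on the hCD4 arrays. Only hCD4 replicate 1 stood out, and the other hCD4 array matched the lower Hemangioblast one. The change was -0.24 (95% interval -0.81 to 0.34), and without hCD4 replicate 1 it was 0.13. Ezh1, the paralog of resting cells, was at 234 and 272 against 264 and 284 (-0.11, 95% interval -0.60 to 0.38). Jarid2, which recruits PRC2 in ES cells, was at 1045 and 1023 against 1142 and 976 (-0.03, 95% interval -0.38 to 0.33).

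**Figure D3:**
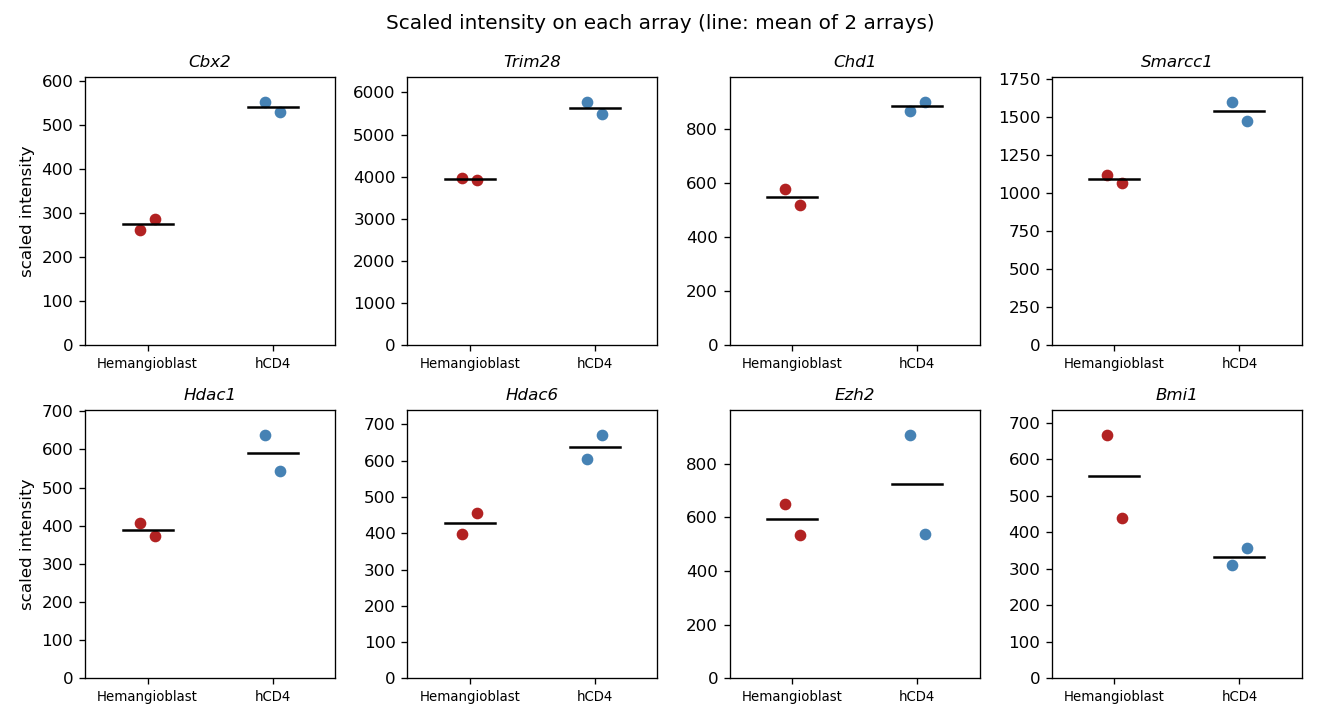
Scaled intensity (vertical axes, linear, from 0) of 8 genes on each array, Hemangioblast on the left and hCD4 on the right, with a line at the mean of 2 arrays. Cbx2, Trim28, Chd1, Smarcc1, Hdac1 and Hdac6 were lower on both Hemangioblast arrays, Bmi1 was higher on both, and Ezh2 overlapped because its hCD4 arrays read 909 and 538.

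The heterochromatin group was lower on all Hemangioblast arrays without overlap, where this holds for 22% of all genes. Of its 3 genes 0 passed the threshold, and 2 had an unadjusted p under 0.05. Trim28 (KAP1), the corepressor that KRAB zinc finger proteins use to silence retroelements in ES cells, was among the brightest members, at 3977 and 3931 on the Hemangioblast arrays, against 5781 and 5497 on the hCD4 arrays. Arrays of a group agreed closely. The change was -0.51 (95% interval -0.82 to -0.20, adjusted p = 0.0815), or 70.2% of the hCD4 level. Cbx1 (HP1 beta), a reader of heterochromatic methyl marks, was at 350 and 391 against 674 and 470 (-0.58, adjusted p = 0.216), with the hCD4 arrays apart. Cbx5 (HP1 alpha) was at 1116 and 1039 against 1265 and 1338 (-0.27, adjusted p = 0.437). The second probe sets of both HP1 genes overlapped between groups.

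Among class I deacetylases, Hdac1 and Hdac2, which share the same complexes, read differently. Hdac1 was at 406 and 372 on the Hemangioblast arrays, against 639 and 543 on the hCD4 arrays, a change of -0.58 (SE 0.181, adjusted p = 0.139). Hdac2 was at 813 and 637 against 777 and 680, a change of -0.01 (95% interval -0.43 to 0.40). The Hdac1 groups did not overlap and the Hdac2 groups did, but the difference between the paralogs was not tested. Hdac3, the deacetylase of the NCoR and SMRT corepressors, was at 275 and 263 against 323 and 215 (0.03, 95% interval -0.54 to 0.60).

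Class II members followed no single direction, and 0 of 3 passed, with 1 (Hdac6) at an unadjusted p under 0.05. Hdac6, a mostly cytoplasmic tubulin deacetylase, was at 397 and 457 on the Hemangioblast arrays, against 605 and 672 on the hCD4 arrays (-0.57, 95% interval -0.97 to -0.16, adjusted p = 0.138). Hdac7, known for its part in endothelial and lymphoid cells, was at 721 and 709 against 850 and 1015 (-0.37, adjusted p = 0.311). Both genes were lower without overlap between groups, which holds for 22% of all genes. Hdac5, a signal-responsive corepressor of Mef2 factors, was at 1009 and 1189 against 978 and 1116 (0.07, 95% interval -0.30 to 0.44).

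In the SWI/SNF family 4 of 7 genes lay apart and lower, where this holds for 22% of all genes. Their changes lay between -0.49 and -0.45, and 0 passed, though all 4 had an unadjusted p under 0.05. Smarca4 (Brg1), the ATPase that ES cells depend on, was at 1129 and 1094 on the Hemangioblast arrays, against 1445 and 1609 on the hCD4 arrays (-0.45, adjusted p = 0.152). Smarcc1 (BAF155), the scaffold of the ES cell form of the complex, was at 1116 and 1065 against 1600 and 1471 (-0.49, adjusted p = 0.117). Both genes had close pairs and a gap between groups on these probe sets. A second, much dimmer probe set of Smarca4 read -0.22 with overlapping groups. Smarcd1 (BAF60a) was at 404 and 339 against 515 and 519 (-0.47, adjusted p = 0.253), and Smarce1 (BAF57) at 455 and 355 against 521 and 612 (-0.47, adjusted p = 0.284).

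The other 3 SWI/SNF genes did not share that direction. Smarcb1 (SNF5), a core subunit and tumour suppressor, was at 967 and 1164 on the Hemangioblast arrays, against 1007 and 1045 on the hCD4 arrays (0.05, 95% interval -0.32 to 0.41, and -0.04 with median scaling). Smarca2 (Brm), the alternative ATPase, was dim and overlapped, at 110 and 131 against 153 and 49.0 (0.38, 95% interval -0.65 to 1.41). Smarcd2 (BAF60b), the form known for granulocyte development, was at 1262 and 718 against 809 and 640 (0.40, adjusted p = 0.545). That probe set carries the suffix the array maker gave to sets shared by similar sequences, and the other sets of Smarcd2 read between -0.19 and 0.40.

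Of the 7 remodellers outside SWI/SNF, 6 had a change below 0, where 47.4% of all genes did. Past the threshold were 0, and Chd1 and Smarca5 had an unadjusted p under 0.05. Chd1, which keeps ES cell chromatin open, came closest, at 577 and 517 on the Hemangioblast arrays, against 865 and 900 on the hCD4 arrays (-0.68, SE 0.160, adjusted p = 0.0562). The groups were well apart, at 62.6% of the hCD4 level. Smarca5 (SNF2H), the ISWI ATPase, was at 374 and 486 against 671 and 574 (-0.53, adjusted p = 0.222), and a second probe set read -0.60 (adjusted p = 0.166), also without overlap. Smarcad1, a remodeller of silent chromatin, was at 256 and 265 against 326 and 398 (-0.44, adjusted p = 0.353). Its second, dimmer probe set read -0.36 with overlapping groups.

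The other CHD genes differed less. Chd4, the ATPase of the NuRD deacetylase complex, was at 3300 and 2896 on the Hemangioblast arrays, against 3926 and 3412 on the hCD4 arrays (-0.24, 95% interval -0.59 to 0.10), on a probe set of the shared-sequence kind. Chd8, which binds beta-catenin, was at 262 and 247 against 286 and 324 (-0.24, adjusted p = 0.674). Both were lower without overlap between groups, which holds for 22% of all genes. Chd7, the gene of CHARGE syndrome in human, read -0.22 and Chd1l 0.004, both with overlapping groups.

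**Figure D4:**
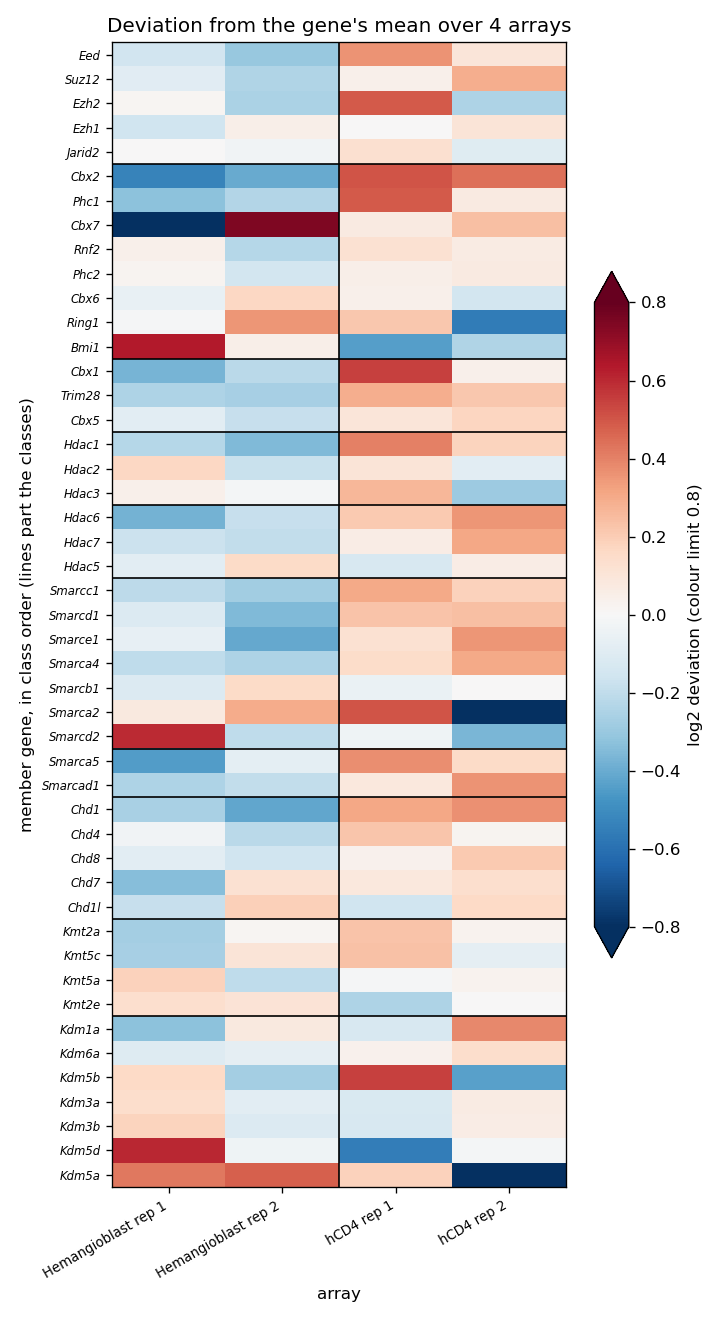
Log2 deviation of each of the 47 genes (rows, in class order) from its own mean over the 4 arrays (columns, Hemangioblast left of hCD4). Blue is below and red above the mean (colour limit 0.8), so that blue on the left and red on the right marks the 23 genes lower on both Hemangioblast arrays, while the lysine demethylases at the bottom show mixed colours.

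Among the Kmt and Kdm genes, grouped by symbol, 4 of 11 had groups that did not overlap, against 46.5% of all genes. Of these 4, 2 were lower and 2 higher. Past the threshold were 0 of 11, and 0 had an unadjusted p under 0.05. Kmt2a (Mll1), the trithorax methyltransferase that maintains Hox genes in blood progenitors, was at 230 and 285 on the Hemangioblast arrays, against 333 and 287 on the hCD4 arrays (-0.26, 95% interval -0.76 to 0.25). Its lower hCD4 value all but met the higher Hemangioblast one, and its second probe set overlapped. Kmt2e (Mll5) was one of the 3 genes higher without overlap, at 231 and 227 against 174 and 210 (0.24, adjusted p = 0.720). Kmt5a and Kmt5c, which methylate histone H4, overlapped between groups (-0.02 and -0.16).

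Demethylases had a median change of 0.06, the only class median above 0, though Kdm3a and Kdm3b turned to -0.02 and -0.01 with median scaling. Kdm1a (Lsd1), which removes methyl groups at enhancers with Hdac1 and CoREST, was at 193 and 261 on the Hemangioblast arrays, against 224 and 327 on the hCD4 arrays (-0.25, 95% interval -0.87 to 0.36). Kdm6a (Utx), which removes the PRC2 mark, was at 440 and 451 against 487 and 524 (-0.18, 95% interval -0.57 to 0.22), the single demethylase that was lower without overlap. Kdm3a and Kdm3b, which act on another repressive histone mark, read 0.06 and 0.07. The Kdm5 genes were dim, and Kdm5a was at 44.2 and 46.6 against 34.9 and 5.09, so its change of 0.91 (95% interval -0.15 to 1.96) rests on 1 low hCD4 array, and was 0.27 without it. Kdm5b read 132 and 93.7 against 177 and 81.9, and the Y-linked Kdm5d 75.1 and 42.4 against 24.9 and 43.2, both with overlap.

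Of the 12 members with several probe sets, 7 had the same sign on each of them and 5 did not. The 16 probe sets not used to represent a gene had changes from -0.60 to 0.40, and the smallest adjusted p among them was 0.166, the second set of Smarca5. The arrays within a group differed by a median of 0.22 in size on the log2 scale over the 47 genes in the Hemangioblast group, with a maximum of 1.80 (Cbx7), and by a median of 0.20 in the hCD4 group, with a maximum of 1.37 (Smarca2). That difference was larger than the difference between the groups for 23 genes in the Hemangioblast pair and for 18 in the hCD4 pair.

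From a list of 110 partner subunits that the symbols above do not cover, 63 were measured. Of these 2 fell and 0 rose, against 1.96% and 3.39% of all genes on the array. At an unadjusted p under 0.05, 10 were lower and 2 higher, against 8.62% and 9.59% of all genes. Their median change was -0.12, and 43 (68.3%) were below 0, against 47.4% of all genes. Hells (Lsh), a helicase needed for DNA methylation at repeats, was at 323 and 511 on the Hemangioblast arrays, against 856 and 876 on the hCD4 arrays, a fall to 48% of the hCD4 level (log2 change -1.06, SE 0.224, limma adjusted p = 0.0373). Ruvbl2, an AAA+ ATPase of the INO80 and Tip60 complexes, was at 1250 and 1127 against 1835 and 2439, a fall to 56.4% of the hCD4 level (log2 change -0.83, SE 0.174, limma adjusted p = 0.0371). Neither overlapped between groups. Neither call held under every setting. Without scaling the adjusted p was 0.082 for Hells and 0.118 for Ruvbl2, without an intensity trend 0.172 and 0.205, and with median scaling that of Ruvbl2 was 0.0689. The adjusted p of Hells was 0.066 when Hemangioblast replicate 1 was left out, 0.17 for hCD4 replicate 1 and 0.221 for hCD4 replicate 2. That of Ruvbl2 was 0.0926 when Hemangioblast replicate 2 was left out, 0.0706 for hCD4 replicate 1 and 0.299 for hCD4 replicate 2. With 1 array left out the log2 change ranged from -1.38 to -0.74 for Hells and from -1.03 to -0.62 for Ruvbl2. Ruvbl1, which pairs with Ruvbl2, was at 1119 and 1104 against 1614 and 2091 (-0.72, adjusted p = 0.0527).

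By role, 0 passed among 10 Polycomb partners, 11 deacetylase partners, 16 methylation genes and 7 acetylation genes, where 3, 3, 1 and 1 had an unadjusted p under 0.05. The median change was -0.10 for the Polycomb partners, 0.04 for the deacetylase partners, of which 6 of 11 were above 0, -0.12 for the methylation genes and -0.25 for the acetylation genes, beside -0.26 for 19 remodelling partners. The paralogous scaffolds of the Sin3 deacetylase complex read opposite ways without passing. Sin3b was at 1433 and 1160 on the Hemangioblast arrays, against 778 and 851 on the hCD4 arrays (0.65, adjusted p = 0.0714). Sin3a was at 519 and 469 against 745 and 774 (-0.61, adjusted p = 0.0889), and the neuronal gene repressor Rest at 200 and 288 against 398 and 415 (-0.72, adjusted p = 0.144). The acetyltransferase Kat2b (PCAF) averaged 321 ± 58.3 against 164 ± 6.81 (SD, n = 2 each, no overlap) (0.90, adjusted p = 0.0805), while its paralog Kat2a (GCN5) was at 297 and 305 against 414 and 390 (-0.40, adjusted p = 0.362) and Crebbp (CBP) read -0.52 (adjusted p = 0.308). In the Polycomb list the smallest adjusted p were those of Pcgf5, a Bmi1 paralog of variant PRC1 (-0.80, adjusted p = 0.0952), Asxl1, a partner of the deubiquitinase Bap1 (-0.60, 0.102), and Yy1 (-0.60, 0.176). In the methylation list they were those of the arginine methyltransferase Carm1 (-0.77, 0.133), Dpy30 (-0.42, 0.32) and Setdb1 (-0.34, 0.381), the last of which works with Trim28.

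Markers of myeloid and erythroid cells were higher on the Hemangioblast arrays. The hemangioblast regulators were lower there, and the pluripotency list was lower only in part. Summed over 10 myeloid genes the scaled intensity was 7614 and 8765 on the Hemangioblast arrays, against 380 and 378 on the hCD4 arrays, and over 9 erythroid genes 28219 and 28758 against 8045 and 8488, with 8 and 6 of them higher past the threshold. Most of the erythroid sum came from the globin genes Hba-a1, Hbb-bh1 and Hbb-y, and all 9 erythroid genes had a change above 0. The 7 hemangioblast regulators summed to 3163 and 3655 against 5966 and 7313. Past the threshold and lower were 3, Etv2 (-3.39), Kdr (Flk-1, -1.55) and Gata2 (-0.98). All 7 had a change below 0, so this list ran against the array title. The 10 pluripotency genes summed to 4751 and 4940 against 7800 and 6048, with 2 past the threshold and lower, Pou5f1 (-2.79) and Dppa5a (-2.08). In 6 of the 10 the groups overlapped, and Esrrb, Nanog and Fgf4 read 0.02, -0.02 and 0.06. Esrrb alone, at 3343 and 3476 against 3165 and 3579, held most of the Hemangioblast sum. Proliferation genes summed to 19599 and 18655 against 22707 and 22771, with a median change of -0.32. Of the 14, 11 were below 0 and 0 passed the threshold. At an unadjusted p under 0.05, 6 were lower and 1 higher, against 8.62% and 9.59% of all genes. The higher one was Mki67 (0.48). The part of cell type or of proliferation in the members' values was not tested. Trimmed mean intensity before scaling ran from 334 to 389, log2 values correlated at 0.961 within the Hemangioblast and 0.963 within the hCD4 pair across probe sets, and the 3' to 5' ratio of the Gapdh control was 1.33 and 1.03 against 1.13 and 1.03. That of the beta-actin control was 1.63 and 1.16 against 1.36 and 1.12, so replicate 1 was the higher in both groups and on both controls.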

How the data were processed

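RNA of 2 groups of mouse cells, with 2 arrays each, was extracted with TRIzol without amplification and labelled with biotin, per the labels. The deposited table holds linear intensity values, 1 for each probe set on each array. Software, background correction and scaling behind them: not given in the sources used here. Groups and replicate numbers come from the titles. Of 12488 probe sets, 66 controls were left out. Each array was scaled to the average trimmed mean (2% trimmed at each end; factors 0.939 and 1.05 for Hemangioblast, 0.936 and 1.09 for hCD4), 16 was added and log2 taken. The test was limma 3.58.1 in R 4.3.3 (lmFit, eBayes with an intensity trend), two-sided, with no dim filter and no block, and 2 residual and 6.18 prior degrees of freedom. An exact permutation test of these arrays cannot give a p below 0.333. The 95% intervals use the moderated standard error, unadjusted for the number of genes. Arrays give no counts, so their number limits the precision.

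Symbols came from the platform annotation (10833 probe sets with 1 symbol, 396 with several, 1193 with none), and all 63 member probe sets were found in the RefSeq table with 0 symbols changed. Members, classes, partner lists and markers were chosen with earlier results of these data known. All members may be named, the partner genes named are those past the threshold or the 3 with the smallest adjusted p of a list, and Ruvbl1 was named after its values were seen. In 20 simulated sets of 12422 probe sets, drawn from limma's own variance model for this comparison, 200 probe sets brighter than the median were changed. The fit recovered 1.42% of 1.5-fold, 31.5% of 2-fold and 93.5% of 4-fold changes. In the data 556 probe sets were called, more than the 200 changed in each simulated set. With fewer calls the Benjamini-Hochberg cutoff is stricter, so these shares need not hold for the data and can be too low. Recovery of changes in dimmer probe sets was not simulated. Alternatives were other added constants, scalings, a dim filter, no trend, a replicate block, averaged probe sets and each array left out. Deviations of same-numbered arrays correlated at -0.00781, so the numbers were not taken to pair arrays. Summaries used Python 3.11.15 and plots matplotlib 3.10.9.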

Additional observations from a re-analysis of the deposited data

How the results depend on the processing

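The median change of the members stayed below 0 under all 13 alternatives, at -0.30 with median scaling, and at -0.23 to -0.16 with 1 array left out. With median scaling 83% of the members were below 0, where 53.9% of all probe sets were. The call of Cbx2 was lost in 7 of 13 alternatives. Member genes called, and member probe sets called, numbered 2 with an added constant of 1 (Cbx2 and Chd1) and 3 with dim probe sets left out (Cbx2, Chd1 and Trim28), where fewer probe sets were tested. They numbered 2 with a replicate block (Cbx2 and Chd1), and 0 without scaling, 0 without an intensity trend and 0 with any 1 array left out. In limma at an unadjusted p under 0.05 these last gave 5 lower and 1 higher without scaling, likewise 5 and 1 without a trend, and 4 to 11 lower and 0 to 2 higher without 1 array. With the probe sets of a gene averaged, Cbx2 was not called (adjusted p = 0.139) and Chd1 was (0.0492). Over the whole array 556 calls (362 higher, 194 lower) became 272 without scaling (222 and 50), 853 with dim probe sets left out (497 and 356), 220 without a trend (188 and 32) and 219 to 517 with 1 array left out. The replicate block gave 432 higher and 278 lower. With 1 array left out, the lone array of a group is assumed to vary like the others. Apart from fewer probe sets or arrays, the cause of these shifts was not tested.

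Genes higher without overlap numbered 5 without scaling, 1 with quantile normalization and 7 to 10 with 1 array left out. Those lower without overlap numbered 20, 24 and 26 to 30. Past 1.5-fold in all pairs were 2 to 4 lower and 0 to 3 higher with 1 array left out. With 1 array left out both counts are easier to reach, since fewer pairs of arrays have to differ. Shares over all genes were not counted under these settings, so the shifts are not a result about the members. Some genes that passed under no alternative turned sign, and the cause was not tested. Under other scalings and averaged probe sets these lay within 0.11 of 0 at first, while with 1 array left out they included Smarcd2 (0.40), Smarca2 (0.38), Ring1 (0.34), Cbx7 (-0.31), Kdm1a (-0.25), Ezh2 (-0.24) and Chd7 (-0.22). With median scaling Chd1l read -0.07, Hdac3 -0.05, Hdac5 -0.02, Kdm3a -0.02, Kdm3b -0.01 and Smarcb1 -0.04. With quantile normalization Chd1l read -0.13, Hdac3 -0.04 and Jarid2 0.02. Without scaling Hdac2 read 0.01 and Kmt5a 0.0022, and with averaged probe sets Cbx6 read -0.05. With 1 array left out the ranges were -0.01 to 0.22 for Cbx6, -1.21 to 0.59 for Cbx7, -0.18 to 0.19 for Chd1l, -0.45 to 0.02 for Chd7, -0.61 to 0.13 for Ezh2, -0.19 to 0.16 for Hdac2, -0.25 to 0.30 for Hdac3, -0.05 to 0.18 for Hdac5, -0.14 to 0.08 for Jarid2, -0.51 to 0.0028 for Kdm1a, -0.05 to 0.17 for Kdm3a, -0.07 to 0.22 for Kdm3b and -0.60 to 0.38 for Kdm5b. They were -0.22 to 0.18 for Kmt5a, -0.35 to 0.03 for Kmt5c, -0.04 to 0.73 for Ring1, -0.31 to 1.06 for Smarca2, -0.08 to 0.18 for Smarcb1 and -0.0036 to 0.80 for Smarcd2.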
